A study of Mus musculus with 30 samples.

Results

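The comparison was between male mice lacking Cyp1a1 (KO) and wild-type males (WT), both of strain B6 and both eating benzo[a]pyrene (BaP). Its members were the arrays labelled Cyp1a1 KO or WT at weeks 4, 8, 12 and 16 of BaP, with 1 exception, KO week 12 replicate 2, whose log2 values had a standard deviation under 1.5. That left 15 of the 30 arrays of the series, 7 KO and 8 WT, with 2 arrays per genotype and week except for the single KO array at week 12. The tissue is labelled preputial gland duct, while the protocols describe dissected preputial glands, which are modified sebaceous glands opening beside the penis. BaP was mixed into corn oil-soaked food from 6 weeks of age at about 12.5 mg/kg/day, so every animal of both groups carried the exposure, and weeks on BaP and age rose together. The labels describe a whole-animal knockout with no further detail of the allele, and they describe extraction from 2 mice per group without saying whether an array holds 1 mouse. P-values below measure the spread between these arrays. The 4 arrays of the same genotypes at week 0, before BaP, served as a second set on which the main test did not draw.

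BaP is a polycyclic aromatic hydrocarbon formed by combustion. It binds the aryl hydrocarbon receptor (AhR), which pairs with ARNT and activates the genes of the CYP1 cytochromes P450, and AHRR, itself a target, represses the receptor. CYP1A1 and CYP1B1 oxidise BaP; the products can be conjugated and excreted, or can be activated further to epoxides that bind DNA.

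The promoter windows of 4 genes that rose in KO are shown first, to set the AhR targets Cyp1b1 and Ahrr, with differences of 2.05 and 0.50, beside the stefin genes Stfa1 and Stfa3, with 3.85 and 2.06. Each runs from 250 bases before to 50 bases after the annotated start, 5′ to 3′ on the gene's strand, from RefSeq on GRCm38.p6. Capitals mark GCGTG, the core of the site that AhR with ARNT binds, and its reverse complement CACGC. The windows are chr17:79715012-79715311 (minus strand) for Cyp1b1, chr13:74292282-74292581 (minus) for Ahrr, chr16:36276898-36277197 (plus) for Stfa1 and chr16:36455343-36455642 (minus) for Stfa3.
Cyp1b1: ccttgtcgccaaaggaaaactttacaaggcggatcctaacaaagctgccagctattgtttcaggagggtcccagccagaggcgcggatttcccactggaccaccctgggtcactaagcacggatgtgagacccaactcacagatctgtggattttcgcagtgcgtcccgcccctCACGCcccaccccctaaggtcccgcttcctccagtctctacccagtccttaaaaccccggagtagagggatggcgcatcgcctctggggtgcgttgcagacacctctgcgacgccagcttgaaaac
Ahrr: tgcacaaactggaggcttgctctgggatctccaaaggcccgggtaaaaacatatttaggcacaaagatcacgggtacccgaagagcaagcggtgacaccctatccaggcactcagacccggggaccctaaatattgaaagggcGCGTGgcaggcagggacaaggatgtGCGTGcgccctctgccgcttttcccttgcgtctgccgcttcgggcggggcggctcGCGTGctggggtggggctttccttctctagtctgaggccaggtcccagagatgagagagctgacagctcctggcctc
Stfa1: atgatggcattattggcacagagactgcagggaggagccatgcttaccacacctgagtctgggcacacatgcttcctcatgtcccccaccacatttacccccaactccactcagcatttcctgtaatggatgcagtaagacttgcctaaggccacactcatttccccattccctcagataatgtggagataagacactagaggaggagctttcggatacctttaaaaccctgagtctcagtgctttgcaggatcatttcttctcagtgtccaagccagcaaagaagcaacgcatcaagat
Stfa3: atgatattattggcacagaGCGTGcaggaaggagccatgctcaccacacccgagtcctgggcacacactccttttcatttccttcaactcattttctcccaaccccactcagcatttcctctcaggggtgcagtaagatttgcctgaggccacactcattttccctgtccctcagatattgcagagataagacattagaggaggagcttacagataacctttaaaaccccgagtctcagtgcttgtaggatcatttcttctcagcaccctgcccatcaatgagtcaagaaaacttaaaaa
The core was present 1 time in the Cyp1b1 window, 3 times in that of Ahrr and 1 time in that of Stfa3, and these letters were not in the Stfa1 window. The longer form TNGCGTG was present 1 time, in the Ahrr window, where it overlaps a GCGTG. Of 32851 promoter windows of 300 bases, 32.4% held GCGTG on either strand and 5.07% held TNGCGTG. Other windows were looked at and are not shown. Those of Tiparp and Cyp1a1, not among the genes called below, held GCGTG 1 time each. Those of Nqo1, Cyp1a2 and Nfe2l2, also not called, and of Csta1, which rose, did not hold it. Sequence outside the windows was not looked at, so absence here does not speak for the rest of a promoter. The part of these letters in the differences was not tested. In an alignment of 306 columns the Stfa1 and Stfa3 windows were identical at 248, or 81%.

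The arrays were alike in centre and differed slightly in range. Array medians lay between 5.18 and 5.34 log2 units. The standard deviation of all log2 values was 1.91 to 2.00 on the WT arrays, 1.89 to 1.98 on the KO arrays of weeks 4, 8 and 12, and 1.76 to 1.80 on both KO arrays of week 16. Across genes (not replicates of each other), array pairs correlated at 0.961 to 0.995 within WT, 0.955 to 0.991 within KO and 0.949 to 0.990 between the genotypes. Of the defining markers measured, 7 of 8 of sebaceous gland, 4 of 5 of keratinocytes and none of 5 of neutrophils exceeded the array median on most arrays. The 4 defining markers of skeletal muscle had a mean of 6.91 in KO week 4 replicate 2, against 4.89 to 5.46 over the WT arrays. WT week 12 replicate 1 stood apart on many genes. The total counts without it are given below, for genes that differed between genotypes and for differences that varied over the weeks. Counts by gene list and by level are not given without it. The sample numbers in the label descriptions also split by genotype, so what they stand for and genotype cannot be told apart.

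Over 18784 genes, 2508 (13.4%) differed between KO and WT on BaP at an adjusted p under 0.05 in limma, with week as a factor; these are termed called. Of them 1118 (5.95%) were higher and 1390 (7.4%) lower in KO. Most differences were small, with 15 genes at least 1 log2 unit higher and 52 at least 1 lower. The KO and WT arrays did not overlap for 460 genes (2.45%), of which 448 (2.39%) were also called, 153 higher and 295 lower. Differences varied with level, and the part of the narrower KO range in this was not tested. In the lowest quintile of genes the median difference was 0.15 log2, with 178 called higher and none of 3757 lower. In the next to highest quintile the median was -0.088, with 222 of 3757 higher and 614 lower. The highest quintile had 398 of 3757 higher and 596 lower. The shares of all genes given beside the lists below are not matched for level. After quantile normalization the calls were 1104 higher (5.88%) and 1147 lower (6.11%), with 1905 genes called both ways. The median over all genes was 0.06 log2 as deposited and 0.0073 after quantile normalization.

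**Figure D1:**
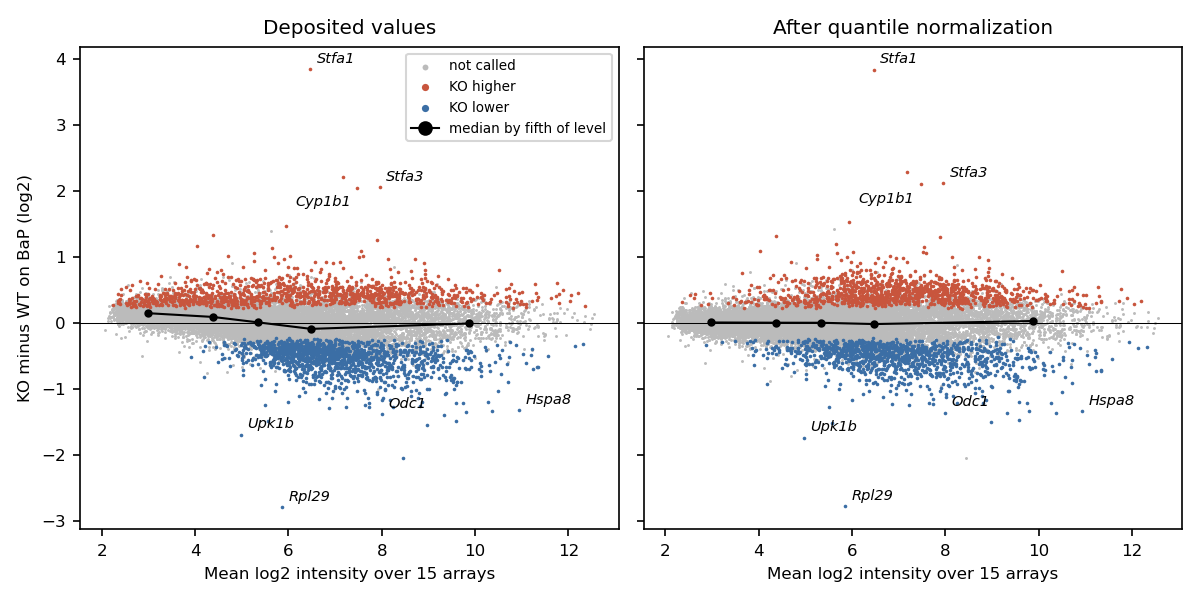
Difference between KO and WT on BaP (log2, vertical axis) against the mean log2 intensity over the 15 arrays, 1 point per gene, as deposited and after quantile normalization; coloured points were called and black points are medians by quintile of level. The deposited medians fall from 0.15 to -0.088 from the lowest quintile of level to the next to highest, and those after quantile normalization lie near 0.

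The count of called genes rested on particular arrays. It was 3649 without WT week 12 replicate 1, 1634 without WT week 16 replicate 1 and 1452 without WT week 16 replicate 2. Without the 4 arrays of week 16 it was 693 (264 or 1.41% higher, 429 or 2.28% lower), of which 641 had been called before, and without the KO arrays of that week it was 878. With KO week 12 replicate 2 included it was 1008. Of the 2508 called genes, 1348 (53.7%) stayed called whichever of the 15 arrays was left out, and for list members that did not, the text below gives how many of the 15 arrays, left out singly, ended the call.

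At week 0, on arrays that had no part in the test on BaP, 2373 of the 2508 called genes (94.6%) differed in the same direction, against 78.2% of all genes. Of the genes called higher on BaP, 1004 of 1118 were also higher in KO before BaP, and of those called lower 1369 of 1390 were also lower. The KO arrays of week 0 had standard deviations of 1.78 to 1.86 against 1.98 to 2.08 in WT, so the difference in range was present there as well, and its part in these shares was not tested. Over the 4 weeks on BaP, 2133 called genes and 5356 of all 18784 genes kept 1 sign; the genes were called on these same weeks, so nothing is read from the first count.

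The targeted gene was low on every array. Cyp1a1 lay below the array median in all 15, from 4.26 to 4.69 with a median of 4.45 in WT and from 3.76 to 4.71 with a median of 4.14 in KO. In 6 of the 7 KO arrays it was below all WT arrays, and KO week 16 replicate 1 and 2 read 3.84 and 4.71. The difference was -0.36 ± 0.13 log2 (standard error, as for all differences below), with a limma adjusted p of 0.072, and was not called. It was called after quantile normalization (adjusted p = 0.025) and without week 16 (-0.46, adjusted p = 0.0393). Whether the probes fall inside the deleted segment is not given in the sources used here, so a low level on the KO arrays does not check the labels.

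The second P450 of the family, Cyp1b1, was the clearest difference of the comparison. In WT it lay between 6.17 and 6.77 with a median of 6.53, and in KO between 8.37 and 8.82 with a median of 8.60. Every KO array was therefore above every WT array, with no overlap. It was higher in KO by 2.05 ± 0.10, or 4.15-fold (limma adjusted p = 1.91e-08). The weekly differences were 1.88 at week 4, 1.98 at week 8, 2.46 at week 12 and 2.04 at week 16, all from groups of 1 or 2 arrays. Before BaP it read 6.52 and 6.20 in WT and 6.66 and 6.69 in KO, a difference of 0.31. The rise of that difference on BaP, 1.77 ± 0.22, passed the test (adjusted p = 0.0138), and Cyp1b1 was the only one of 18784 genes (0.00532%) to do so, with 2707 at an unadjusted p under 0.05. No gene passed that test without WT week 0 replicate 1, without KO week 0 replicate 1 or with array weights, and 2540 did without KO week 0 replicate 2. The array left out of the fit, KO week 12 replicate 2, read 7.71, above the highest WT array at 6.77.

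**Figure D2:**
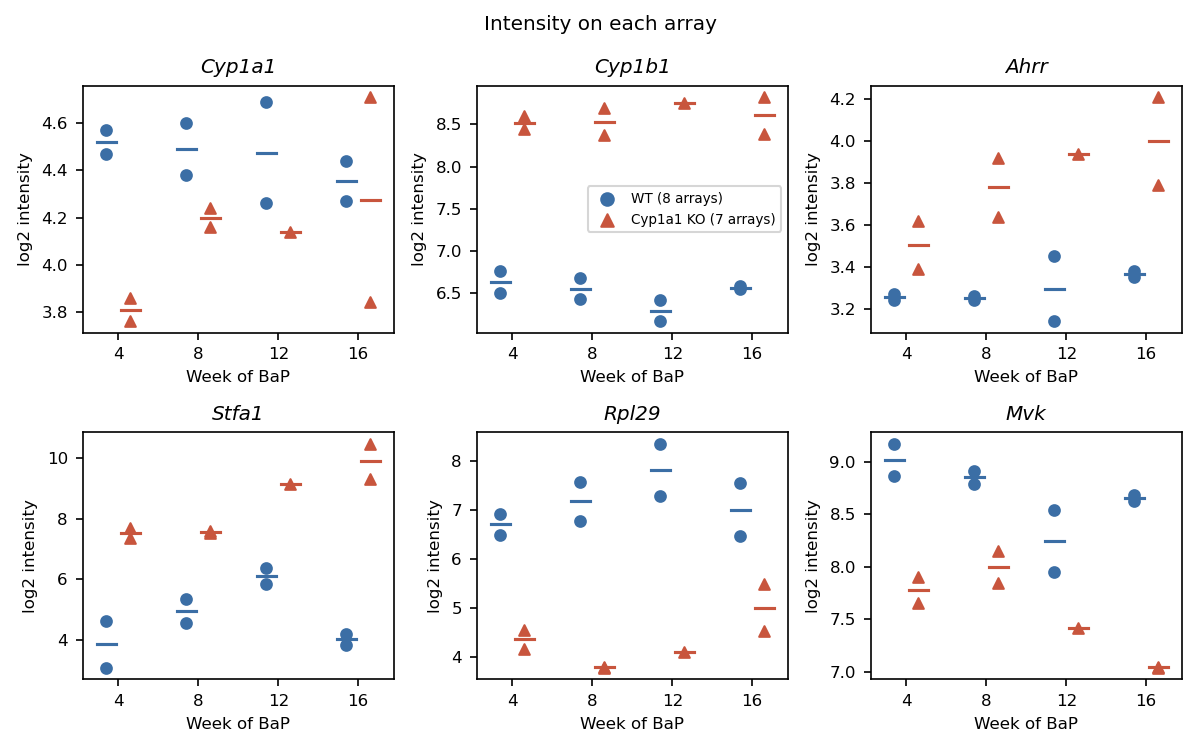
Log2 intensity on each array (vertical axis) against week of BaP for 6 genes, with WT as circles, KO as triangles and a bar at each group mean. Cyp1b1, Stfa1 and Rpl29 separate fully by genotype, with Cyp1b1 between 6.17 and 6.77 in WT and between 8.37 and 8.82 in KO, while Cyp1a1 overlaps.

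Of 15 measured members of the AhR list, 3 rose and 1 fell, against 5.95% and 7.4% of all genes, and the list's median difference was 0.14. Ahrr, the repressor, read 3.14 to 3.45 in WT (median 3.26) and 3.39 to 4.21 in KO (median 3.79). In 6 of 7 KO arrays it was above all WT arrays, and on all 15 it lay below the array median. It was higher by 0.50 ± 0.09 (adjusted p = 0.00307), and before BaP by 0.51. Ptges3, the p23 co-chaperone found with unliganded AhR, differed by 0.49 (adjusted p = 0.037), and Arnt, the partner of AhR, by -0.30 (adjusted p = 0.0259). The call of Ptges3 was lost when any of 9 single arrays was left out (adjusted p up to 0.0893), and that of Arnt with any of 5 (up to 0.0694), and neither was called without week 16. Of the 11 members not called, the values went both ways: among them were Nqo1, a quinone reductase, at 0.53 (adjusted p = 0.051), Tiparp, a mono-ADP-ribosyltransferase that represses AhR, at 0.32 (adjusted p = 0.135), and the targeted gene itself. Over the whole list 9 of 15 differences were positive and 6 negative.

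Genes for other steps in handling BaP moved little as groups. Of 19 other P450 and reductase genes 2 rose and 2 fell, against 5.95% and 7.4% of all genes. Cyp2f2, a P450 best known from airway epithelium, ranged from 10.76 to 11.62 in WT and from 10.04 to 11.28 in KO, a difference of -0.61 ± 0.15 (adjusted p = 0.0132) that was not called without week 16 (-0.34). Cyp3a13 was called at 0.32 (adjusted p = 0.00779), but not after quantile normalization (0.21, adjusted p = 0.0585), and Cyp7b1 and Cyp2s1 lost their calls without any of 10 single arrays. No gene of this list was called without week 16. Among 26 conjugating (phase 2) enzymes 2 rose and 1 fell. Gstp1, a glutathione transferase that conjugates BaP epoxides, read 8.87 to 10.29 in WT and 6.68 to 8.98 in KO, with 6 of 7 KO arrays below all WT arrays. Its difference was -1.14 ± 0.26 (adjusted p = 0.0103), from -0.10 at week 8 to -2.42 at week 16, and was -0.66 (adjusted p = 0.107) without week 16. Its close relative Gstp3, chosen after its values were seen, differed by -1.11 with no overlap (adjusted p = 0.000349), and signal shared between such copies cannot be told apart here. Mgst1 rose by 0.41 (adjusted p = 0.0115), and Mgst2, at 0.46, lost its call without any of 9 arrays. Without week 16 none of the 26 was called.

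Of 18 NRF2 targets 1 rose and 2 fell, against 5.95% and 7.4% of all genes. Hmox1, heme oxygenase 1, read 7.84 to 8.12 in WT and 6.90 to 7.59 in KO, with no overlap, a difference of -0.67 ± 0.09 (adjusted p = 0.000353). Tkt, transketolase, differed by -0.70 (adjusted p = 0.00155), and Me1 rose by 0.30 with an adjusted p of 0.0498 that was lost without any of 12 arrays. Of 18 p53 targets 2 rose and 2 fell, to be read against the same shares of all genes. All 4 calls were kept with any single array left out, but 2 of them, Trp53inp1 and Sesn2, were lost without week 16 (adjusted p = 0.057 and 0.156), and Trp53inp1, Fas and Sesn2 were lost with KO week 12 replicate 2 included (0.184, 0.755 and 0.0724). Trp53inp1 rose by 0.53 (adjusted p = 0.0034) and the death receptor Fas by 0.48 (adjusted p = 0.00632), while Cdkn1a, the p21 cell-cycle inhibitor, differed by -0.43 (adjusted p = 0.0048) and Sesn2 by -0.41 (adjusted p = 0.0165). Among 20 genes of adduct repair and bypass, 3 rose: Polk, the polymerase kappa that copies past BaP adducts, by 0.59 with no overlap (median 6.24 in WT and 6.83 in KO, adjusted p = 0.00153), Rev1 by 0.44 and the excision nuclease Ercc5 by 0.44. Ercc1 and Ercc3 were called lower, at -0.31 and -0.39, and lost their calls without any of 3 and 8 arrays. Without week 16, 2 of the 20 were called higher and 1 lower, and Rev1 was not called (adjusted p = 0.0924).

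The highest difference was in Stfa1, a stefin A inhibitor of cysteine proteases found in neutrophils and in stratified epithelium. On the WT arrays it read 3.09 and 4.64 at week 4, 5.37 and 4.58 at week 8, 6.39 and 5.85 at week 12 and 3.84 and 4.21 at week 16. On the KO arrays it read 7.35 and 7.68, 7.52 and 7.58, 9.14, and 10.47 and 9.32 at the same weeks. The groups did not overlap, and the difference was 3.85 ± 0.39 (adjusted p = 3.57e-05), with 3 of 8 WT arrays above the array median. Before BaP it was 2.24. Stfa3 differed by 2.06 ± 0.34 with overlap between 8.01 and 8.29 (adjusted p = 0.00124), and Csta1 by 1.34 ± 0.18 with none (adjusted p = 0.000349). The stefin A genes are close copies of each other, so signal may be shared among them.

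In the list of stefins, defensins and alarmins 5 of 16 rose and none fell, against 5.95% and 7.4% of all genes. The list's median was 0.22 (0.11 after quantile normalization). Defb1 and Defb4, epithelial beta-defensins, were the others, at 0.29 and 0.85, and lost their calls without any of 11 and 8 arrays. The calprotectin gene S100a8 was at 3.26 to 4.23 in WT and 3.32 to 4.94 in KO, a difference of 0.22 (adjusted p = 0.364). Beside this list, 2 of 21 neutrophil and inflammation genes were called, Cxcl5 at 0.37 and Il1rn at 0.38. Cxcl5 lost its call without WT week 16 replicate 2 (adjusted p = 0.0507) and Il1rn without KO week 12 replicate 1 (adjusted p = 0.053). None of the 5 defining neutrophil markers exceeded the array median on most arrays, and the part of neutrophils in the stefin differences was not tested.

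Of the 32 lists, cholesterol synthesis had the largest share of called members. Of its 13 measured genes 8 were lower and none higher, against 7.4% of all genes, with a median difference of -0.47 (-0.43 after quantile normalization, -0.38 without week 16). The median level of the list, 8.55, lies in the highest quintile, where 596 of 3757 genes fell and 398 rose. Mvk, mevalonate kinase, read 7.95 to 9.17 in WT and 7.04 to 8.15 in KO, with 6 of 7 KO arrays below all WT arrays, and differed by -1.16 ± 0.12 (adjusted p = 5.82e-05). Mvd and Fdps, later in the mevalonate pathway, did not overlap and differed by -0.89 each (adjusted p = 0.00241 and 0.00296). Insig1, a feedback regulator of SREBP, Lss and Pmvk differed by -0.998, -0.83 and -0.83. Dhcr7 and Fdft1, at -0.42 and -0.47, each lost their call without any of 7 arrays. Without week 16 only 3 of the 13 were called. At week 8 the differences of the 8 called genes ran from 0.11 (Lss) to -0.85 (Mvk), with Insig1 at 0.03 and Dhcr7 at 0.06. Before BaP all 8 were already lower in KO, from -0.50 (Dhcr7) to -1.53 (Pmvk).

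**Figure D3:**
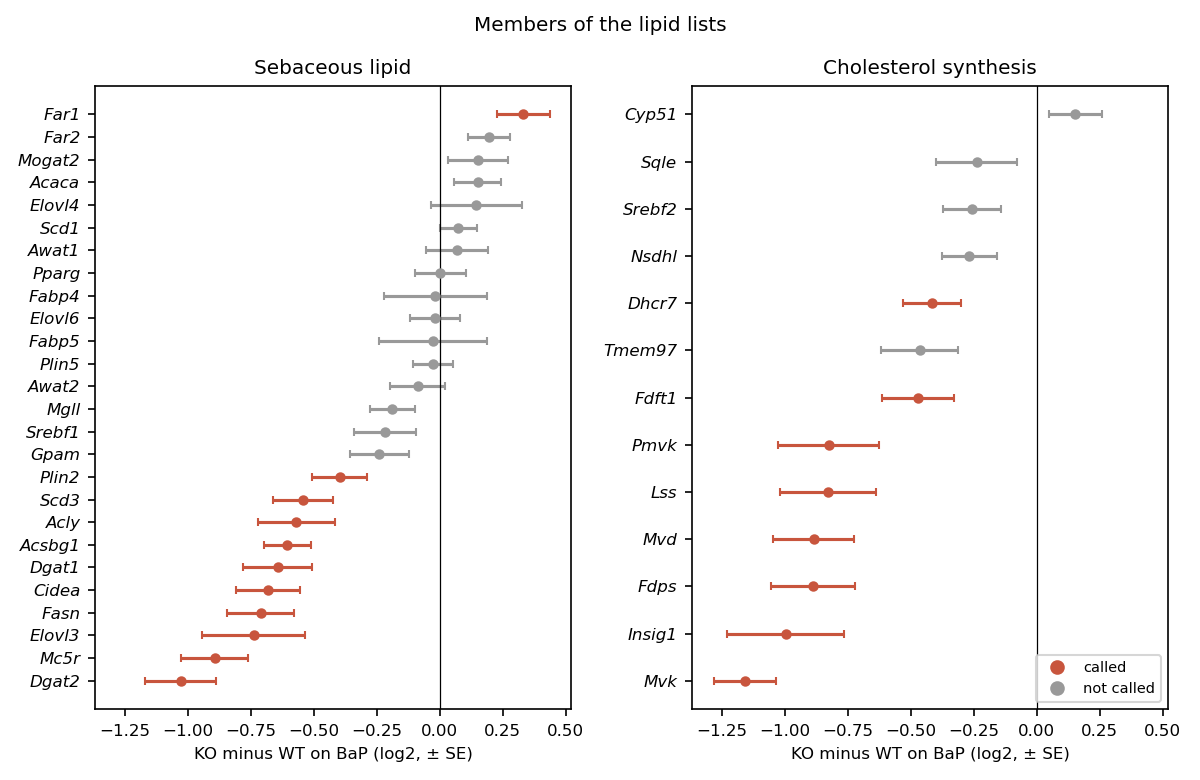
Difference between KO and WT on BaP (log2, horizontal axis, bars ± standard error) for each measured member of the sebaceous lipid list (26) and of the cholesterol synthesis list (13), coloured where called. In the cholesterol list 8 are called and all 8 lie below 0, with Mvk lowest at -1.16; in the sebaceous list 10 called members lie below 0 and Far1 lies above.

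Among 26 sebaceous lipid genes 10 fell and 1 rose, against 7.4% and 5.95% of all genes, with a median of -0.14. Their median level, 7.85, lies in the highest quintile, where 596 of 3757 genes fell and 398 rose. Without week 16, 4 were called lower and none higher. At week 8 the differences of the 10 genes called lower ran from 0.11 (Elovl3) to -1.36 (Dgat2). Before BaP all 10 were already lower in KO, from -0.43 (Acsbg1) to -1.86 (Elovl3). Dgat2, which makes triglyceride, read 7.30 to 8.25 in WT and 6.46 to 7.40 in KO and differed by -1.03 ± 0.14 (adjusted p = 0.00034). Mc5r, the melanocortin receptor of sebaceous glands, did not overlap (8.83 to 9.25 against 7.41 to 8.72) and differed by -0.89 (adjusted p = 0.000592). Fatty acid synthase, Fasn, differed by -0.71 (adjusted p = 0.00288; 0.0638 without week 16), and the droplet protein gene Cidea by -0.68 (adjusted p = 0.00276). Other abundant members were not called: Scd1, a desaturase, read 12.25 to 12.68 in WT and 12.39 to 12.68 in KO (difference 0.07, adjusted p = 0.511), and Awat2, a wax synthase, differed by -0.09 (adjusted p = 0.603). Scd1 came to -0.0031 after quantile normalization and Awat2 to 0.015 with array weights. Far1, which makes fatty alcohol for wax, was called higher by 0.33, as long as none of 11 arrays was left out. Plin2, Elovl3 and Acly were lost without any of 5, 5 and 4 arrays, and without week 16 Scd3 and Dgat1 were lost as well (adjusted p = 0.0983 and 0.0731). In bulk tissue, fewer cells of a type and less RNA per cell cannot be told apart.

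The 15 lowest called genes without overlap were of mixed kinds. Aldh3b2, an aldehyde dehydrogenase of lipid droplets, read 10.07 to 10.40 in WT and 8.24 to 9.63 in KO, a difference of -1.48 ± 0.13 or 2.79-fold lower (adjusted p = 8.87e-06). Cyb5r3, the cytochrome b5 reductase, differed by -1.55 ± 0.18 (9.39 to 9.95 against 7.22 to 9.09, adjusted p = 9.17e-05) and Odc1, the first enzyme of polyamine synthesis, by -1.38 ± 0.25 (adjusted p = 0.00234). Lhpp, a phosphatase, differed by -1.39. The actin-binding Pfn1 (-1.33) and the sorting factor Vps28 (-1.28) were also among these 15. Lack of overlap was a condition of the choice, so nothing is read from it.

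Rpl29, a ribosomal protein, was the lowest, at 6.48 to 8.36 in WT and 3.78 to 5.49 in KO. Its difference was -2.79 ± 0.26, or 6.91-fold lower (adjusted p = 2.02e-05), and it was already -2.54 before BaP. Rps9 differed by -1.35 (adjusted p = 1.08e-05) and the constitutive chaperone Hspa8 by -1.32 (adjusted p = 8.4e-06), with -1.55 and -1.51 before BaP. All of these have near-identical copies elsewhere in the genome, so their probe values are uncertain. Among separated genes that rose were Eif4a2, a translation initiation helicase (0.97), Snap91, a clathrin assembly protein (0.90), Epm2aip1 (0.84), Plod2, a collagen lysyl hydroxylase (0.75), and the cold-induced RNA-binding protein Rbm3 (0.77). Before BaP the differences of these 5 were 1.28, 1.85, 0.89, 0.62 and 0.93.

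Epithelial lists came next. In the basal and stress keratinocyte list 5 of 17 fell and none rose (median -0.31), against 7.4% and 5.95% of all genes. The median level of the list, 7.54, lies in the highest quintile, where 596 of 3757 genes fell and 398 rose. Krt14, a basal keratin, read 9.98 to 10.34 in WT and 9.36 to 9.97 in KO without overlap (-0.50, adjusted p = 0.00466), and its partner Krt5 differed by -0.70 (adjusted p = 0.00642). Krt15, Krt17 and the basal regulator Trp63 differed by -0.52, -0.67 and -0.42, and lost their calls without any of 4, 3 and 10 arrays. None of the 17 was called without week 16. Of 26 cornified-layer genes 4 rose and 3 fell, and without week 16 the count was 1 higher and 1 lower. Flg2, a filaggrin relative, rose by 1.02 (adjusted p = 0.00942; 0.13 without week 16), while Klk7, a desquamation protease, differed by -0.82 and Tgm1, the envelope crosslinker, by -0.66 (adjusted p = 0.0632 without week 16). The other calls, Hrnr, Sprr4, Lce3a and Krtdap, were lost without any of 11, 10, 3 and 1 arrays, for Krtdap WT week 16 replicate 2 (adjusted p = 0.0521). Krt10, the suprabasal keratin, differed by 0.05 (adjusted p = 0.851).

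Of 23 cell-cycle genes 5 fell and 1 rose, against 7.4% and 5.95% of all genes. Their median level, 6.15, lies in the next to highest quintile, where 614 of 3757 genes fell and 222 rose. The count was 2 higher and 2 lower after quantile normalization, and none higher and 1 lower without week 16. Ube2c, a ubiquitin-conjugating enzyme of mitosis, was separated (-0.68, adjusted p = 0.00155). Aurkb, Cdc20 and Ccnb2 were lost without any of 11, 8 and 7 arrays. Of 13 urothelium and duct genes 3 fell, of which 2 were called without week 16, with Upk1b, a urothelial tetraspanin, at 4.13 to 7.23 in WT and 3.68 to 4.65 in KO (-1.69, adjusted p = 0.000995).

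Retinoid genes went both ways, with 2 of 17 higher and 4 lower, against 5.95% and 7.4% of all genes. Adh7, a retinol-oxidising dehydrogenase, rose by 0.81 (adjusted p = 0.00393), and Rxra, the retinoid X receptor, differed by -0.66 (adjusted p = 0.0019). Stra6 and Crabp2 were lost without any of 8 and 5 arrays, and without week 16, 2 were called higher and 1 lower. In the androgen list 1 of 9 was called, Nr3c1, the glucocorticoid receptor, at 0.40 (adjusted p = 0.0106).

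**Figure D4:**
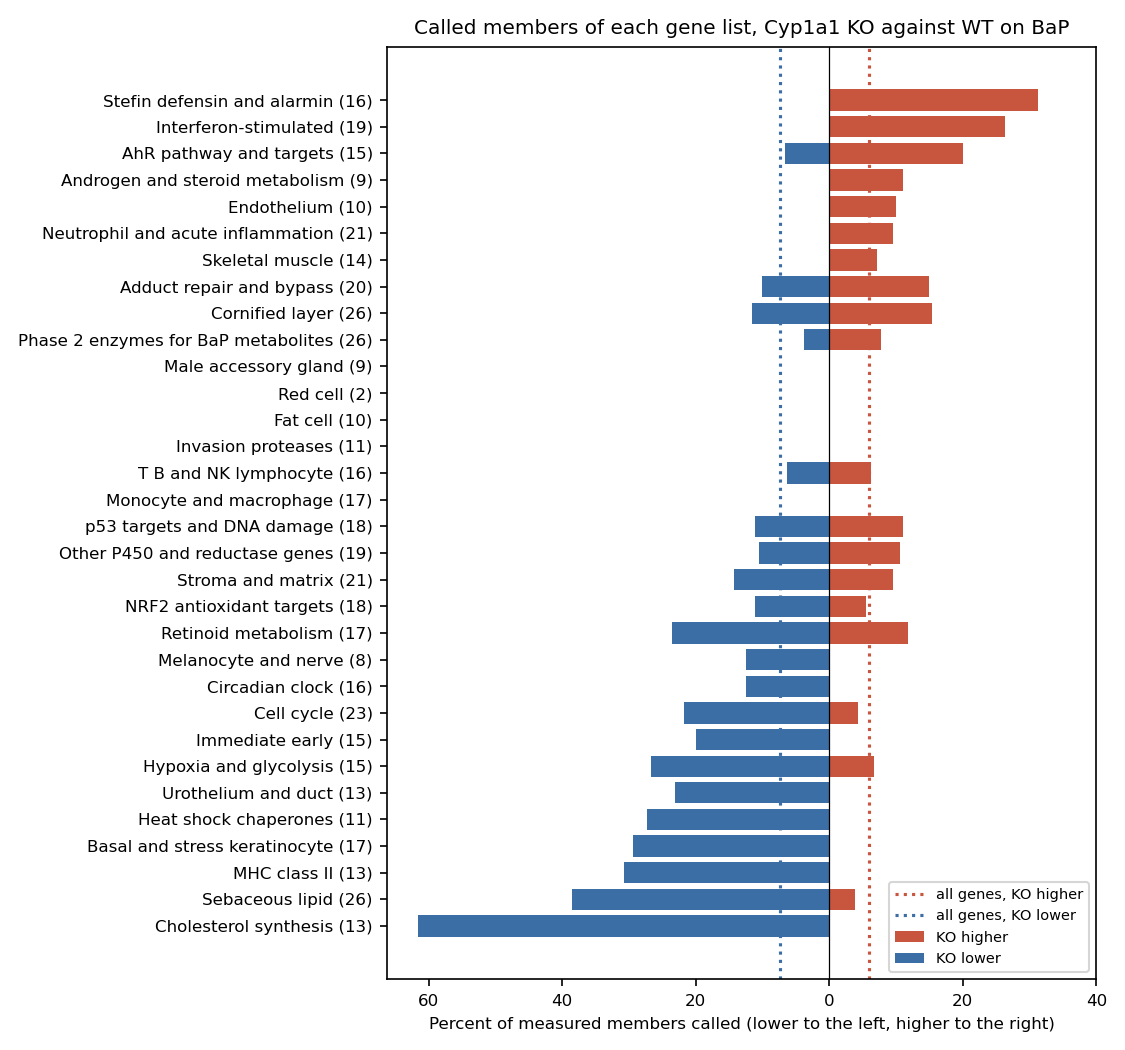
Percent of the measured members of each gene list called lower (left) or higher (right) in KO, with the number measured in brackets and dotted lines at the percent of all genes called lower (7.4) and higher (5.95). Cholesterol synthesis has 8 of 13 lower and the stefin and defensin list 5 of 16 higher; 5 lists have no called member.

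Immune lists differed in direction. Of 13 MHC class II genes 4 fell and none rose (median -0.25), against 7.4% and 5.95% of all genes. Cd74, the invariant chain, read 7.32 to 8.83 in WT and 5.74 to 8.40 in KO, with 5 of 7 KO arrays below all WT arrays, and differed by -1.24 ± 0.26 (adjusted p = 0.00665). H2-Ab1 differed by -0.79 (adjusted p = 0.0107), and H2-Eb1 and H2-DMa, at -0.63 and -0.55, lost their calls without any of 10 and 9 arrays. Without week 16 no member was called. Of 17 macrophage genes none was called. Of 19 interferon-stimulated genes 5 rose and none fell, with a median of 0.22 that was 0.12 after quantile normalization. Iigp1, an immunity-related GTPase, read 4.39 to 5.31 in WT and 5.05 to 6.73 in KO and rose by 0.94 ± 0.18 (adjusted p = 0.00339); Gbp6 rose by 0.69, Ifit2 by 0.43 and Gbp3 by 0.37. Mx1, at 0.27, lost its call without any of 12 arrays. Without week 16 only 1 of the 19 was called. Cd3e (-0.31) and Ncr1 (0.37) were the called lymphocyte genes of 16, and were lost without any of 10 arrays and without WT week 8 replicate 2 (adjusted p = 0.0504).

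The remaining lists are read against the 7.4% of all genes called lower and 5.95% called higher. These shares vary with level. Of 3757 genes each, 614 were lower in the next to highest quintile and 596 in the highest. The former holds the median level of the immediate early list (6.89), the latter those of the hypoxia (7.43) and heat shock (8.75) lists. Of 15 immediate early genes 3 fell, with a median of -0.33: Egr2 (-0.87), Myc (-0.51) and Dusp1 (-0.68), the last lost without any of 5 arrays, and none was called without week 16. Of 15 hypoxia and glycolysis genes 4 fell and 1 rose, led by the glucose transporter Slc2a1, which was separated (8.23 to 8.89 against 7.05 to 8.01, -0.90, adjusted p = 0.000282) and was the only one called without week 16; Ldha and Hif1a were lost without any of 7 and 6 arrays. Of 11 heat shock chaperones 3 fell, Hspa8 and, lost without any of 11 and 6 arrays, Cryab and Dnajb1; 1 was called lower after quantile normalization. Nr1d1, a clock repressor, differed by -0.94 (adjusted p = 0.00184), and with Ciart made 2 of 16 clock genes called. Of 21 stroma genes 2 rose and 3 fell, with Acta2, smooth muscle actin, at -1.17 and Sparc at -0.89. None of the 21 was called without week 16, and Col5a2 and Tagln were each lost without any of 9 arrays. All 14 skeletal muscle genes had positive differences, against 61.4% of all genes. The median difference was 0.093 in the next to lowest quintile, which holds the median level of these genes (4.42). Their median was 0.32, or 0.20 after quantile normalization, and 1, Myh2, was called (0.46, adjusted p = 0.0141; 0.169 without week 16). KO week 4 replicate 2 was the array with the highest muscle markers, and the part of muscle tissue in these differences was not tested. Emcn, the 1 called of 10 endothelium genes (0.40), was lost without any of 7 arrays, and Pmp22, the 1 called of 8 melanocyte and nerve genes (-1.25), was lost without week 16. No member was called in the fat cell (10), red cell (2), protease (11) and male accessory gland (9) lists.

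Genes in the neighbourhood of Cyp1a1 were also counted. Among 97 measured protein-coding genes within 50 genes on either side of Cyp1a1, 8 were called higher and 9 lower, 17 in all, against 13.4% of all genes. Of the 97 neighbours, 3 were called without overlap of the arrays, against 2.39% of all genes. These 3 were Acsbg1, a fatty acyl-CoA synthetase (-0.61), Ireb2, an iron regulatory protein (0.52), and Rcn2, a reticulocalbin (0.65). On chromosome 9, which holds Cyp1a1, 173 of 1102 genes (15.7%) were called, and 36 (3.27%) were called without overlap, against 2.39% of all genes. Chromosome 3 had 16.3% called and chromosome 19 had 3.55% called without overlap. Of the other separated genes named above, Rpl29, Hspa8, Snap91, Epm2aip1 and Plod2 also lie on chromosome 9. The rest lie on other chromosomes. They include Cyp1b1, Stfa1, Csta1, Gstp3, Hmox1, Polk, Ercc5, Mvd, Fdps, Mc5r and Aldh3b2. Among them are also Cyb5r3, Odc1, Lhpp, Pfn1, Vps28, Rps9, Eif4a2, Rbm3, Krt14, Ube2c, Mx1 and Slc2a1. The part of their position in these differences was not tested.

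The genotype difference varied over the weeks for 149 genes (0.793%) by a moderated F test, with 3632 at an unadjusted p under 0.05. This count rested on single arrays: it was 1 without WT week 16 replicate 1, 2 without WT week 16 replicate 2, either WT week 8 array or KO week 8 replicate 1, 3 without KO week 8 replicate 2, 6 and 16 without WT week 4 replicate 1 and 2, and 12 without KO week 16 replicate 2. It was 287 without KO week 12 replicate 1, 441 without KO week 4 replicate 1, 456 without WT week 12 replicate 1 and 2913 without WT week 12 replicate 2. Ccl7, a monocyte chemokine, read 7.10 and 7.51 on the WT arrays of week 12 and 5.04 to 5.65 on the other WT arrays, against 5.05 to 5.84 in KO, so its weekly differences were 0.56, 0.00, -2.26 and 0.25 (adjusted p = 0.00717). Sntb1, a syntrophin, read 7.08 and 6.84 on the KO arrays of week 16 and 8.67 to 9.09 on the other KO arrays, against 8.93 to 9.23 in WT (adjusted p = 0.00717). Vps33b, Abhd6 and Hdac3 had the same form, lowest on both KO arrays of week 16. Those arrays are also the ones with the narrowest range.

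**Figure D5:**
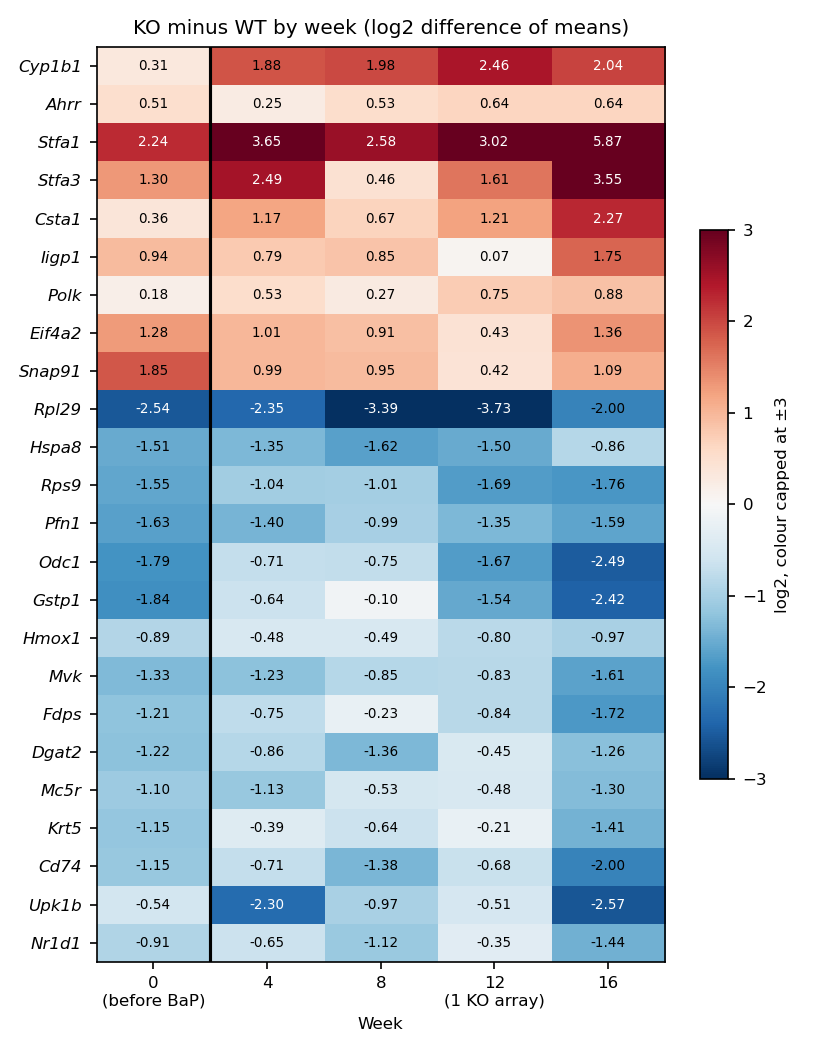
Difference between KO and WT group means (log2) for 24 genes at week 0, before BaP, and at weeks 4, 8, 12 and 16, with red above and blue below 0. Cyp1b1 goes from 0.31 at week 0 to between 1.88 and 2.46 on BaP, while Rpl29 and Hspa8 are low at week 0 as well.

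The genes whose levels followed Cyp1b1 most closely over the 15 arrays were BC005537 (Pearson r = 0.937), B3galnt2 (0.931), Zfp866 (0.925), 1810030O07Rik (0.925) and Tmem87a (0.924). These points share the genotype split. Within WT alone r was 0.29 to 0.85 for these 5 and within KO alone -0.26 to 0.56.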

How the data were processed

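RNA from glands was amplified with the Ovation Pico WTA system and hybridised to expression arrays, per the labels' protocols. The authors deposited RMA output as log2 intensity, 1 value per probe set, per the submitters' processing notes; its version and the annotation build are not given in the sources used here. Of 21212 probe sets 18786 carried 1 gene symbol, 6 several and 2420 were not listed; the probe set with the highest mean stood for a gene, giving 18784 genes, with no low-value filter. The number of arrays limits the precision.

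The comparison was fitted as a limma 3.58.1 linear model in R 4.3.3 with week and genotype (residual degrees of freedom 10). A moderated F test over 8 group means tested variation over weeks, and a 19-array model of 10 group means tested the difference on BaP against week 0. Tests were two-sided, with Benjamini-Hochberg adjustment over all genes, and were tested on simulated data. Gene lists (32, with 503 of 566 genes measured) came from textbook knowledge. Members and lists were chosen with earlier results of these data known. The naming rule took Cyp1a1, Cyp1b1, the 15 highest and 15 lowest separated calls without predicted gene models, up to 3 genes per list, called neighbours of Cyp1a1, the first 5 of the week and week 0 tests and the 5 most like Cyp1b1. The text names part of these, and other called list members, picked after their values were seen. The genes carried through all settings were every called gene of the rule and every called member of every list, whether or not the call was stable; Tiparp, Nqo1, Scd1, Awat2, S100a8, Krt10 and Gstp3 were added although the rule does not take them, with their values known.

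Other settings were quantile normalization, median centring, a low-value filter (at or above the array median on 4 arrays), a trended robust variance, array weights, the mean of all probe sets, a replicate block, KO week 12 replicate 2 included, all 30 arrays in 1 fit, 8 group means, no week term, and each array left out. Leaving out week 16, its KO arrays, or week 12 was chosen after seeing the data.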

Additional observations from a re-analysis of the deposited data

Results flagged for a closer look

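In 334 groups of 7 KO or 8 WT arrays, for the genes carried through all settings, 26 had 1 array far from the others by Dixon's criterion; chance alone gives about 5% of groups. In 17 of the 26 the far array was WT week 12 replicate 1. It was the highest WT array for Epm2aip1 (7.08), Odc1 (9.8), Vps28 (9.82), Mgst2 (9.19), Defb1 (11.39), Defb4 (4.45) and Pmvk (8.62). It was the lowest for Cyp2f2 (10.76), Ercc5 (7.35), Krt5 (8.8), Nr1d1 (7.35), Scamp2 (6.09), Ubl7 (6.5), Tle3 (6.18), Trp63 (9.54), Hrnr (4.62) and Sprr4 (11.85). Other far arrays were WT week 8 replicate 1 for H2-Ab1 (9.69) and Lce3a (5.08), KO week 16 replicate 1 for Cfap47 (4.75), KO week 16 replicate 2 for Defb4 (5.86) and Mx1 (3.51), KO week 12 replicate 1 for Cyp3a13 (4.8), KO week 4 replicate 2 for Stra6 (6.7), KO week 4 replicate 1 for Krt10 (7.14) and KO week 8 replicate 1 for 1810030O07Rik (7.03).

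The difference between KO and WT varied over the 4 weeks by limma's moderated F test for 12 of these genes, with adjusted p of 0.00717 for Ccl7 and Sntb1, 0.0121 for Vps33b and Abhd6, 0.0141 for Hdac3, 0.0225 for Gins2, 0.0394 for Cyb5r3, Stfa3 and Gstp1, 0.0399 for Lhpp, 0.0408 for Insig1 and 0.0483 for Flg2. The Cyp1b1 difference on BaP differed from that before BaP (limma adjusted p = 0.0138). On the array left out of the comparison, KO week 12 replicate 2, Cyp1b1 read 7.71 against a highest WT array of 6.77.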

How the results depend on the processing

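The 158 called genes carried through all settings were not chosen for stability. Of them, 34 lost their call in none of the 14 other settings and with none of the 15 arrays left out. The low-value filter left 143 of the 158 to test, and genes it removed were not counted as lost. The calls kept were 133 after quantile normalization, 67 without week 16 and 43 of 158 with all 30 arrays in 1 fit. None of the 158 changed direction except Emcn, at -0.0519 with KO week 12 replicate 2 included and with all 30 arrays. Among genes not called, direction turned for Scd1 (-0.00307, quantile normalization), Awat2 (0.015, array weights), Ccl7 (0.273 without week 12; -0.278 to 0.273 with 1 array left out) and Krt10 (-0.0288 without week 12; -0.0288 to 0.133 with 1 array left out). The cause was not tested.

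Against 2508 called genes, the count was 1008 with KO week 12 replicate 2 included, 282 with all 30 arrays, 693 without week 16, 878 without its KO arrays, and 1452 to 3649 with 1 array left out. Against 149 genes varying over weeks it was 273 with the low-value filter, 506 with array weights, 0 with KO week 12 replicate 2 included, 0 with all 30 arrays, and 1 to 2913 with 1 array left out. Against 1 gene in the week 0 test it was 0 with array weights, with that KO array included and with all 30 arrays, and 0 to 2540 with 1 array left out. limma's weight estimates did not fully converge in at least 1 weighted fit.

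Deviations of same-numbered KO and WT arrays from their group means correlated across genes at -0.12, 0.075 and 0.03 at weeks 4, 8 and 16. With 2 arrays per group these values cannot show whether replicate numbers pair the samples, and the main fit used no pairing. With the replicate block the counts were 2150, 74 and 1. With 2 arrays per genotype and week, small differences are poorly measured.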
